A study of Homo sapiens with 8 samples.

Results

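The genes of sterol and fatty acid synthesis were followed across 8 arrays of human colon cancer cells. The list held 37 genes, taken from textbook membership of these pathways and chosen with earlier results of these data known. Where several probe sets named a gene and no other, the one brightest on average was used. This gave 34 measured genes out of 19775 on the array: 16 enzymes of sterol synthesis, 10 genes of sterol control and transport, and 8 genes of fatty acid synthesis. CYP51A1 and FADS1 are annotated here only on probe sets that name several genes, and FDFT1 was not analysed here, so these 3 genes have no value.

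Each group had 2 arrays, 1 per sample. HT29 spheres were HT29 cells grown in DMEM-F12 with N2 Plus supplement, bFGF at 10 ng/ml and EGF at 10 ng/ml, and no serum is listed for this medium. Parental HT29 cells were grown in DMEM with 10% fetal bovine serum. The SW480 Snail group was a stable line described as expressing Snail, a transcriptional repressor, and the SW480 vector group was a stable line carrying the empty vector. Both lines were kept in high-glucose DMEM with 10% fetal bovine serum. HT29 and SW480 are established lines from human colorectal adenocarcinomas. Nothing in the labels says that partner arrays were separate cultures, or whether the stable lines were clones or pools. The p-values thus cover array-to-array spread, which could be purely technical. Serum, growth factors and sphere form all changed together between the HT29 groups, so they cannot be told apart.

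Cells make cholesterol from acetyl-CoA by way of mevalonate, farnesyl diphosphate, squalene and lanosterol. When sterol in the endoplasmic reticulum is low, the escort protein SCAP carries the transcription factors SREBP1 and SREBP2, encoded by SREBF1 and SREBF2, to the Golgi, where they are cut and released to the nucleus. There they turn on the enzymes of sterol and fatty acid synthesis. The INSIG proteins hold SCAP back when sterol is plentiful, and INSIG1 is itself a target of the SREBPs. LXR proteins, one of which NR1H3 encodes, answer to excess sterol instead and turn on sterol export.

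All values are log2 expression. The comparison of a pair of groups is the log2 difference ± SE from limma, fitted over all 8 arrays, with p-values adjusted by Benjamini-Hochberg over all 19775 genes and a threshold of 0.05. In a bulk sample, fewer cells of a type and less RNA per cell cannot be told apart. EPCAM, KRT8, KRT18 and KRT19, epithelial markers, averaged between 11.75 and 13.96 in all 4 groups, while CDX2 and VIL1 averaged between 5.95 and 9.61, and CDH17 averaged 9.82 in spheres against 5.08 in parental cells. Of these 7 markers, 2 rose and 1 fell in spheres, and 2 rose and 1 fell in the Snail line. Of 8 markers of other cell types, 3 rose and 0 fell in spheres, and 0 rose and 1 fell in the Snail line. Over all genes 12.4% rose and 19.0% fell in spheres, and 8.91% rose and 7.34% fell in the Snail line. A single fall is thus near the share of all genes. LUM, a stromal marker among the 8, averaged 8.43 in spheres against 4.65 in parental cells, and the other 7 of the 8 averaged below 8 in every group. SNAI1, the gene of Snail, read 6.32 and 6.38 on the arrays labelled Snail, against 6.36 and 6.34 on the vector arrays (limma adjusted p = 0.99). The label of the Snail line was therefore not borne out by this probe set, and whether the probe set reads the introduced transcript is not known here. Every direction given for that comparison rests on the label, and "the Snail line" below means the line labelled so. The BioC hybridisation control averaged 10.01 on the sphere arrays and 8.37 on the parental arrays. On the Snail arrays the 4 spike-ins averaged 0.27 to 0.46 log2 below the vector arrays, and the ribosomal RNA controls (18S and 28S) stood 1.40 and 0.94 log2 above them. The part of these marker and control shifts in the results was not tested.

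The 2 parental HT29 arrays stood apart from each other in these genes. Replicate 2 read higher than replicate 1 for 31 of the 34 members, against 47.6% of all genes. The gap between the 2 arrays had a median of 0.42 log2 over the members and 0.18 over all genes. In the other 3 groups the median gap over the members was 0.08 to 0.12. INSIG1 was the member with the widest gap, at 8.82 in replicate 1 and 10.63 in replicate 2. Changes in spheres are therefore also given without each parental array.

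In HT29 spheres sterol synthesis was raised along nearly its whole length. Of the 16 measured enzymes, 13 rose, 0 fell and 3 did not pass the test. Over all genes 12.4% rose and 19.0% fell. The median change of the 16 was 1.11 log2, against 0.04 over all genes. The changes ran from -0.46 for TM7SF2 to 2.62 for HMGCS1. Over all 34 members 20 rose, 4 fell and 10 did not pass.

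At the head of the pathway, ACAT2, the thiolase that makes acetoacetyl-CoA, rose by 0.37 ± 0.13 log2 (adjusted p = 0.049), but it did not pass when any 1 HT29 array was left out (adjusted p 0.069 to 0.15). HMGCS1, the synthase that makes HMG-CoA, read 10.57 and 10.67 on the sphere arrays, against 7.65 and 8.35 on the parental arrays. Both sphere arrays lay more than 2 log2 above the higher parental array. The rise was 2.62 ± 0.21 log2, or 6.15-fold (adjusted p = 9.6e-06), and a dimmer probe set gave 3.40. Leaving out parental replicate 1 or 2 gave 2.27 or 2.97.

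The steps from mevalonate to farnesyl diphosphate moved less evenly. MVK, mevalonate kinase, rose by 0.51 ± 0.14, a call lost without sphere replicate 1 or parental replicate 1. PMVK, which adds the next phosphate, was at -0.41 ± 0.17 (adjusted p = 0.096), but it fell by 0.66 (adjusted p = 0.010) without parental replicate 2. MVD, the decarboxylase that follows, read 8.04 and 8.17 in spheres, against 6.75 and 7.02 in parental cells, a rise of 1.22 ± 0.18 (adjusted p = 0.00059). The groups of MVD did not overlap, as was true in this direction of 32.4% of all genes. IDI1, the isomerase that interconverts the isoprene units, was read by a probe set marked as open to cross-hybridisation. It read 11.16 and 11.04 in spheres, against 9.73 and 10.06 in parental cells. That is a rise of 1.21 ± 0.15 (adjusted p = 0.00019), and its next brightest probe set gave 1.30. Its other probe sets, at least 2.5 log2 dimmer on average, gave -0.28 and -0.86. FDPS, farnesyl diphosphate synthase, rose by 0.76 ± 0.13 (adjusted p = 0.0014).

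From squalene on, most steps rose by 2-fold or more. SQLE, squalene epoxidase, a slow step of the pathway, read 12.87 and 12.83 in spheres, against 10.54 and 11.17 in parental cells, a rise of 2.00 ± 0.18 (adjusted p = 2.5e-05). All 4 of its probe sets rose, by 2.00 to 3.90. LSS, which folds the epoxide into lanosterol, read 10.07 and 9.93 in spheres, against 8.76 and 9.22 in parental cells, a rise of 1.01 ± 0.17 (adjusted p = 0.0011). TM7SF2, a sterol reductase, was at -0.46 ± 0.20 (adjusted p = 0.11), but it fell by 0.84 (adjusted p = 0.0016) without parental replicate 1.

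MSMO1, which strips methyl groups from the sterol ring, read 12.29 and 12.32 in spheres, against 9.30 and 10.30 in parental cells. The rise was 2.51 ± 0.25, or 5.68-fold (adjusted p = 4.7e-05), and it was 2.01 or 3.0 without parental replicate 1 or 2. NSDHL, which acts with MSMO1 in demethylation, rose by 0.85 ± 0.13. HSD17B7, the ketoreductase of the same stage, also read by a probe set open to cross-hybridisation, was at 0.31 ± 0.14 (adjusted p = 0.12), and passed at 0.46 without parental replicate 2. The 3 enzymes of this stage thus ran from a clear rise to a change short of the threshold.

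The closing steps rose together. EBP, the sterol isomerase, read 10.33 and 10.18 in spheres, against 8.77 and 8.98 in parental cells, a rise of 1.38 ± 0.13 (adjusted p = 3.1e-05). Its dimmest probe set gave -0.07 and the other 2 gave 1.01 and 1.24. SC5D, a sterol desaturase, read 11.08 and 11.03 in spheres, against 9.10 and 9.56 in parental cells, a rise of 1.72 ± 0.16 (adjusted p = 2.3e-05). DHCR7, the reductase that yields cholesterol, read 10.66 and 10.49 in spheres, against 8.75 and 9.47 in parental cells, a rise of 1.47 ± 0.20 (adjusted p = 0.00032). In each of these enzymes both sphere arrays exceeded both parental arrays. By position, the 7 measured steps up to squalene had a median change of 0.76 and the 9 later ones 1.38, with a Spearman rho of 0.21 between step and change over 16 genes, given as a description.

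**Figure D1:**
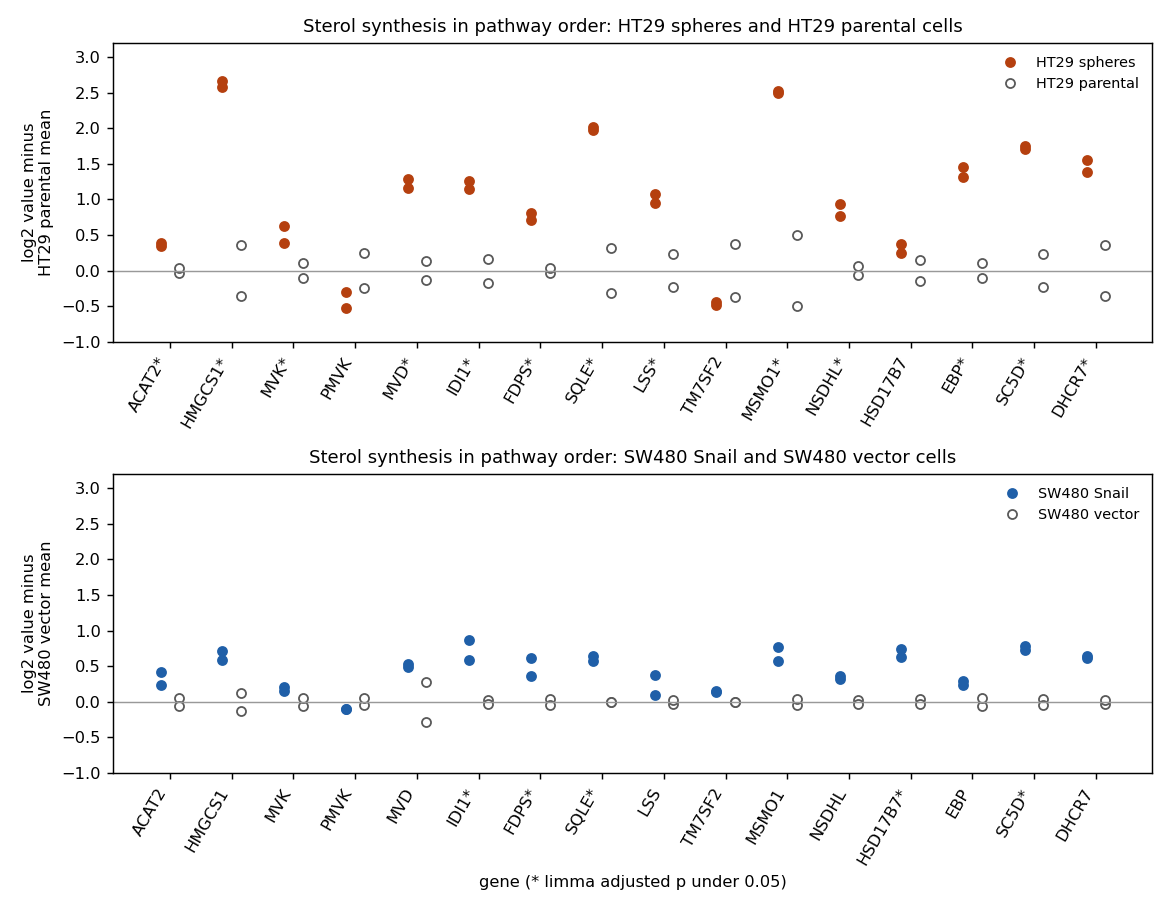
Each point is 1 array, plotted as its log2 value minus the mean of the comparison's control group (HT29 parental above, SW480 vector below), for the 16 measured enzymes in pathway order from left to right. Both sphere arrays lie more than 2 above the parental mean for HMGCS1 and MSMO1 and below it for PMVK and TM7SF2, whereas no Snail array exceeds the vector mean by as much as 1.

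The promoters of the 4 genes with the largest rises in spheres, among those with a listed window, are shown because the genes moved together, and that of SREBF2, chosen after its motif was seen, because it holds the sterol element looked for. Windows run from 250 bases before to 50 bases after the start site, in RefSeq's GRCh38.p14 annotation, and the first listed window of a gene is printed. Capitals mark CCAAT, the box bound by NF-Y, GGGCGG, the box bound by SP1, and TCACNCCAC, a sterol regulatory element, each on either strand. Adjoining or overlapping boxes run together in capitals. The HMGCS1 window is chr5:43313363-43313662 on the minus strand, the MSMO1 window chr4:165327419-165327718 on the plus strand and the INSIG1 window chr7:155297628-155297927 on the plus strand. The SC5D window is chr11:121292521-121292820 and the SREBF2 window chr22:41832855-41833154, both on the plus strand.
HMGCS1 promoter: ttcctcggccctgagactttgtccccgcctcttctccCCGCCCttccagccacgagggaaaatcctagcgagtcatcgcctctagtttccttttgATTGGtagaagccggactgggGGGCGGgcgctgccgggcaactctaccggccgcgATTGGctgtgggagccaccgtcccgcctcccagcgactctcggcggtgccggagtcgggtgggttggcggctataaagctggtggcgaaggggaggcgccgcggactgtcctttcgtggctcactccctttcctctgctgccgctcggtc
MSMO1 promoter: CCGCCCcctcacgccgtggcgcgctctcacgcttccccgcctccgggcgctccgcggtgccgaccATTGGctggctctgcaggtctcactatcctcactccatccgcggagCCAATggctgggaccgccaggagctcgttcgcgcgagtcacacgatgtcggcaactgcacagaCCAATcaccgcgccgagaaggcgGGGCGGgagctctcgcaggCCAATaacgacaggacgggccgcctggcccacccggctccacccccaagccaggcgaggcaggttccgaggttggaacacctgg
INSIG1 promoter: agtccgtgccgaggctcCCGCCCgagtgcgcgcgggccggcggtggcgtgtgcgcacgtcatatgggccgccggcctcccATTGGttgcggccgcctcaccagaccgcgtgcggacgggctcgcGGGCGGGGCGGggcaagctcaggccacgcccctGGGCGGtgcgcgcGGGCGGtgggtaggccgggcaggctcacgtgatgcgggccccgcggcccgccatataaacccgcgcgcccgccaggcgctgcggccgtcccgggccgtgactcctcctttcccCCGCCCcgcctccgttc
SC5D promoter: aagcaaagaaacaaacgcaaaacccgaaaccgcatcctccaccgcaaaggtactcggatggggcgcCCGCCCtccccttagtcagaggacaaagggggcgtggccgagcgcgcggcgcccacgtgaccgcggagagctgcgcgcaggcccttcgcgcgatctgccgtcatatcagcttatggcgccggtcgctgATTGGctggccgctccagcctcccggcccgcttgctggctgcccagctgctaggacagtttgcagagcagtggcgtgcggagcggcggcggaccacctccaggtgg
SREBF2 promoter: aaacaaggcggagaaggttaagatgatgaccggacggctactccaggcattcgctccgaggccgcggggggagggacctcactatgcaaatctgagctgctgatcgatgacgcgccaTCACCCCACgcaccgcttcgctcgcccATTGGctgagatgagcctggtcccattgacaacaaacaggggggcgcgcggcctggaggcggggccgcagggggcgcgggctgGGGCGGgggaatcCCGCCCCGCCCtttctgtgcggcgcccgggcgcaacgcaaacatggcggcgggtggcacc
Of the 37 listed genes 33 had a window, 52 windows in all. CCAAT was present in 15 of the 20 windows of sterol synthesis genes (75.0%), against 34.6% of all 35116 windows, and GGGCGG in 18 of the 20 (90.0%), against 45.0%. TCACNCCAC was in 0 of the 20, and in 1.13% of all windows. Among the 52 windows 2 held it, that of SREBF2 as TCACCCCAC and 1 of ACSL1 on the opposite strand. These matches describe letters in the windows and carry no statement on binding.

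Of 10 control and transport genes 4 rose, 2 fell and 4 did not pass in spheres, at a median of -0.03 log2. The share that fell, 20.0%, was close to the 19.0% of all genes, and 40% rose, against 12.4% of all genes. SREBF2, which encodes the SREBP that chiefly drives sterol enzymes, read 8.88 and 8.73 in spheres, against 8.95 and 9.06 in parental cells (-0.20 ± 0.13, adjusted p = 0.29). SREBF1, which encodes the SREBP of fatty acid synthesis and a further sterol form, read 9.35 and 9.27 in spheres, against 8.73 and 9.06 in parental cells. Its rise was 0.42 ± 0.14 (adjusted p = 0.047) and did not pass without parental replicate 1 (0.25, adjusted p = 0.20) or without either sphere array, while it was 0.58 (adjusted p = 0.013) without parental replicate 2. Dimmer probe sets gave -0.21 for SREBF1 in spheres, and 0.02 and 0.44 for SREBF2, and with the mean of its probe sets SREBF1 did not pass (0.10, adjusted p = 0.59). SCAP, the SREBP escort, read 9.19 and 9.01 in spheres, against 9.18 and 9.14 in parental cells (adjusted p = 0.78). No firm direction can be given for the SREBP transcripts in spheres from these probe sets.

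The INSIG genes differed from each other. INSIG1 read 11.92 and 11.98 in spheres, against 8.82 and 10.63 in parental cells, a rise of 2.23 ± 0.42, or 4.69-fold (adjusted p = 0.0024). The parental arrays decided its size, since it was 1.32 without parental replicate 1 and 3.13 without replicate 2, and it passed in both fits (adjusted p at most 0.00042). Its dimmer probe sets gave 2.42 and 3.63. INSIG2 read 8.94 and 8.97 in spheres, against 8.80 and 9.20 in parental cells, and the groups overlapped (-0.04 ± 0.15, adjusted p = 0.86).

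Genes of sterol movement and storage went both ways. STARD4, a carrier of cholesterol between membranes, read 9.89 and 9.95 in spheres, against 7.89 and 8.72 in parental cells, a rise of 1.61 ± 0.22 (adjusted p = 0.00032). NPC1, which releases cholesterol from lysosomes, rose by 0.59 ± 0.14 (adjusted p = 0.0088), a call lost without sphere replicate 2 (adjusted p = 0.062). SOAT1, which esterifies cholesterol for storage, read 5.23 and 5.27 in spheres, against 6.57 and 7.02 in parental cells. It fell by 1.54 ± 0.16 log2 (adjusted p = 5.0e-05), and its 3 probe sets gave -1.35 to -2.35. Its sphere values were under the median gene of all 8 arrays, and whether such values lie above background is not known. NR1H3, the LXR gene, fell by 0.88 ± 0.18 (adjusted p = 0.0044). MYLIP, the ubiquitin ligase that degrades lipoprotein receptors and is a known LXR target, was at -0.02 ± 0.15 (adjusted p = 0.93).

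Of the fatty acid genes 3 of 8 rose in spheres, 2 fell and 3 did not pass, at a median of 0.08 log2. These are 37.5% higher, against 12.4% of all genes, and 25% lower, near the 19.0% of all genes, and 1 of the 2 falls is ACACA, whose probe sets disagree. ACLY, which makes cytosolic acetyl-CoA from citrate, was at -0.15 ± 0.12 (adjusted p = 0.40). ACACA, acetyl-CoA carboxylase, which commits acetyl-CoA to fatty acids, read 9.67 and 9.81 in spheres, against 10.32 and 10.80 in parental cells. It fell by 0.82 ± 0.16 (adjusted p = 0.0032), but its other probe set rose by 1.14 and the mean of both gave 0.16 (adjusted p = 0.30). No direction can be given for ACACA from these probe sets. FASN, fatty acid synthase, read 10.21 and 10.07 in spheres, against 8.82 and 9.39 in parental cells, a rise of 1.03 ± 0.19 (adjusted p = 0.0021). Its dimmer probe set gave 0.04.

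ELOVL6, which extends saturated chains, read 7.70 and 8.11 in spheres, against 9.17 and 8.97 in parental cells. It fell by 1.16 ± 0.16 (adjusted p = 0.00034), and its 3 probe sets all fell, by 1.11 to 1.34. SCD, which puts the first double bond into saturated chains, read 12.77 and 12.87 in spheres, against 11.48 and 12.29 in parental cells. Its rise was 0.93 ± 0.22 (adjusted p = 0.0081), 0.53 without parental replicate 1, and short of the threshold without sphere replicate 2 (adjusted p = 0.054). The other 3 probe sets of SCD gave larger rises, of 2.51, 3.89 and 4.16, so the size of its change depended strongly on the probe set.

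FADS2, a desaturase of polyunsaturated fatty acids, was at -0.15 ± 0.22 in spheres (adjusted p = 0.65). ACSL1, which couples fatty acids to CoA, read 9.95 and 10.06 in spheres, against 8.30 and 9.34 in parental cells. Its rise of 1.18 ± 0.26 (adjusted p = 0.0062) came to 0.67 without parental replicate 1. LPIN1, a phosphatidate phosphatase of lipid synthesis, was at 0.31 ± 0.23 (adjusted p = 0.35), with overlapping groups, and at 0.67 without parental replicate 2. Its dimmer probe sets gave 0.55 and 0.80, and the 0.80 passed in limma over all probe sets naming 1 gene (adjusted p = 0.0014). Of the 24 members that passed in spheres, 19 passed in the same direction whichever HT29 array was left out. The exceptions were ACAT2, MVK, SREBF1, NPC1 and SCD.

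**Figure D2:**
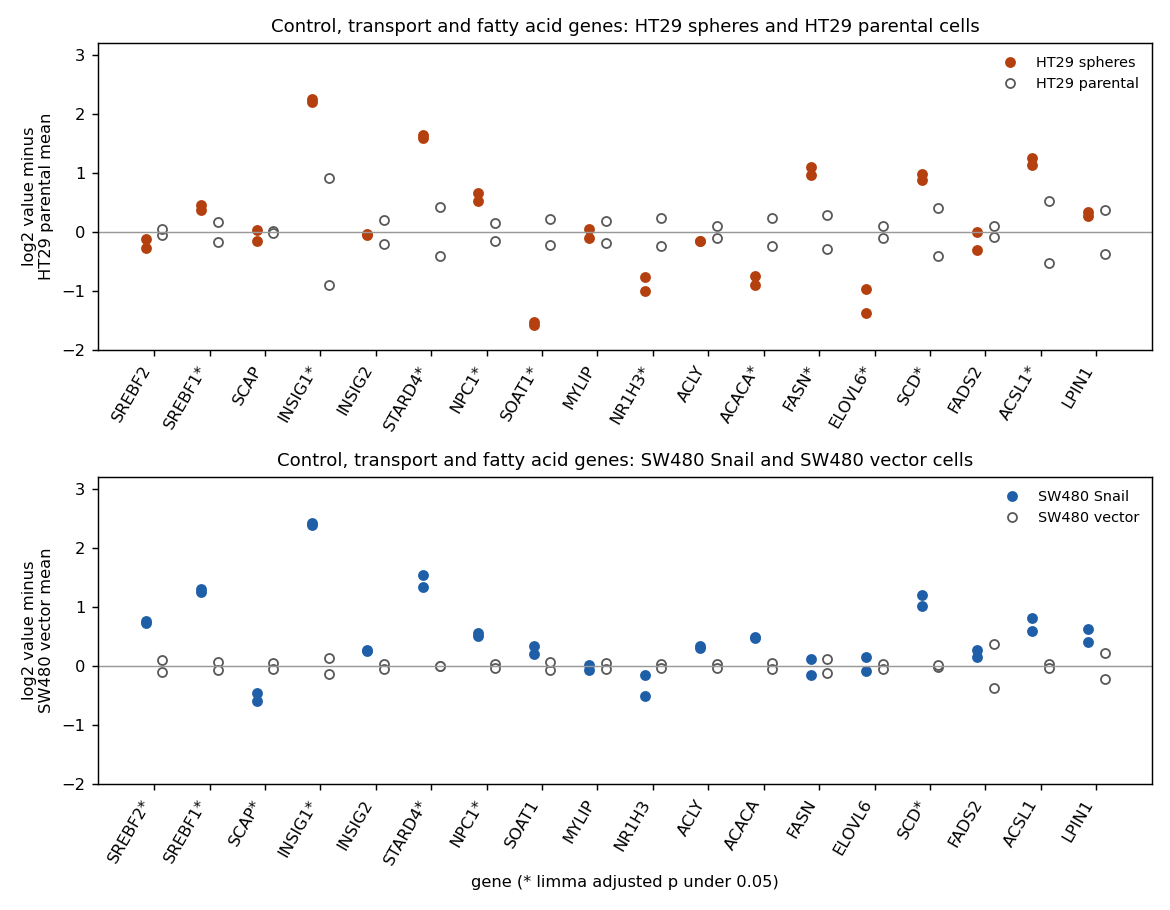
Each point is 1 array, plotted as its log2 value minus the mean of the comparison's control group (HT29 parental above, SW480 vector below), for 10 control and transport genes followed by 8 fatty acid genes. SOAT1, NR1H3, ACACA and ELOVL6 lie below the parental mean in both sphere arrays, INSIG1 lies more than 2 above the control mean in both comparisons, and the parental arrays of INSIG1 are the widest pair.

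The SW480 comparison asked what differed between the stable line labelled Snail and its vector control. Here 11 of the 34 members rose, 1 fell and 22 did not pass, against 8.91% of all genes higher and 7.34% lower. By role, 5 of 16 sterol enzymes rose and 0 fell, 5 of 10 control and transport genes rose and 1 fell, and 1 of 8 fatty acid genes rose. The median change was 0.50 log2 for sterol enzymes, 0.40 for control and transport and 0.40 for fatty acid genes, against 0.01 over all genes. With the SW480 arrays fitted alone 16 members rose and 1 fell, and 4004 of all genes were called, against 3213 in the fit over all 8 arrays. Some of the non-calls below thus depend on fitting SW480 together with HT29. Leaving out 1 SW480 array ended many of the 11 rises. Calls over all genes also became far fewer in these fits, so such losses were not particular to the members. The 4 that passed whichever SW480 array was left out were SREBF1, SREBF2, INSIG1 and STARD4.

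On the probe sets used, both SREBP genes and INSIG1 rose in the Snail line. SREBF1 read 8.52 and 8.57 on the Snail arrays, against 7.34 and 7.20 on the vector arrays, a rise of 1.28 ± 0.14, or 2.43-fold (adjusted p = 0.00040). SREBF2 read 8.32 and 8.35 on the Snail arrays, against 7.70 and 7.48 on the vector arrays, a rise of 0.75 ± 0.13 (adjusted p = 0.0039). Dimmer probe sets gave 0.09 for SREBF1, and 0.29 and 0.01 for SREBF2. None of these passed in limma over all probe sets naming 1 gene (adjusted p 0.23 to 0.97). The call of SREBF2 was lost with the mean of its probe sets (0.35, adjusted p = 0.060). INSIG1 read 9.60 and 9.62 on the Snail arrays, against 7.07 and 7.34 on the vector arrays, a rise of 2.40 ± 0.42, or 5.29-fold (adjusted p = 0.0040). All 3 probe sets of INSIG1 rose, by 1.47 to 2.40. SCAP read 9.37 and 9.23 on the Snail arrays, against 9.87 and 9.77 on the vector arrays. Its groups did not overlap, as for 29.2% of all genes in this direction. It was the member that fell, by 0.52 ± 0.13 (adjusted p = 0.021), and the call was lost without any 1 of the 4 SW480 arrays (adjusted p 0.065 to 0.15). INSIG2 read 9.03 and 9.06 on the Snail arrays, against 8.83 and 8.74 on the vector arrays (0.26 ± 0.15, adjusted p = 0.27).

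Among the carriers, STARD4 read 10.19 and 10.39 on the Snail arrays, against 8.84 and 8.86 on the vector arrays, a rise of 1.44 ± 0.22 (adjusted p = 0.0021). NPC1 rose by 0.53 ± 0.14 (adjusted p = 0.028), a call lost without any 1 SW480 array (adjusted p 0.0996 to 0.15). SOAT1 read 8.01 and 7.88 on the Snail arrays, against 7.60 and 7.74 on the vector arrays (0.28 ± 0.16, adjusted p = 0.29). MYLIP and NR1H3 were at -0.03 ± 0.15 and -0.33 ± 0.18, short of the threshold. One dimmer probe set of MYLIP gave 1.49 and passed in limma over all probe sets naming 1 gene (adjusted p = 0.0011), while 4 of its 6 probe sets were below 0. The non-call of MYLIP thus depends on the probe set.

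The 5 sterol enzymes that passed in the Snail line rose by less than 1 log2. SC5D read 9.69 and 9.63 on the Snail arrays, against 8.95 and 8.87 on the vector arrays, a rise of 0.76 ± 0.16 (adjusted p = 0.0091), while its dimmer probe set gave -0.28. IDI1 read 9.56 and 9.83 on the Snail arrays, against 9.0 and 8.94 on the vector arrays, a rise of 0.73 ± 0.15 (adjusted p = 0.010). SQLE read 9.91 and 9.85 on the Snail arrays, against 9.27 and 9.28 on the vector arrays, a rise of 0.61 ± 0.18 (adjusted p = 0.048), while its dimmest probe set gave -0.18. HSD17B7 rose by 0.69 ± 0.14 (adjusted p = 0.0079) and FDPS by 0.49 ± 0.13 (adjusted p = 0.031). Each of these 5 calls was lost on leaving out at least 1 SW480 array, and over all 4 such fits their changes ran from 0.36 to 0.87 log2. With the mean of probe sets the calls of IDI1 (0.35), SQLE (0.38) and SC5D (0.24) were lost too, and IDI1 also fell short in spheres (0.34, adjusted p = 0.073).

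The other 11 sterol enzymes did not pass on the probe sets used in the fit over all 8 arrays, with changes from -0.10 for PMVK to 0.67 for MSMO1. HMGCS1 read 6.85 and 6.73 on the Snail arrays, against 6.27 and 6.01 on the vector arrays (0.65 ± 0.21, adjusted p = 0.059). MSMO1 read 9.58 and 9.77 on the Snail arrays, against 8.96 and 9.04 on the vector arrays (0.67 ± 0.25, adjusted p = 0.10). Neither gene's groups overlapped, nor did those of DHCR7, at 9.86 and 9.84 on the Snail arrays, against 9.19 and 9.25 on the vector arrays (0.63 ± 0.20, adjusted p = 0.059). Non-overlap in this direction was met by 31.2% of all genes. MVD was at 6.56 and 6.52 on the Snail arrays, against 6.32 and 5.75 on the vector arrays (adjusted p = 0.092). LSS was at 9.62 and 9.34 on the Snail arrays, against 9.21 and 9.27 on the vector arrays, and EBP at 10.92 and 10.97, against 10.62 and 10.73, with adjusted p of 0.40 and 0.21. ACAT2, MVK, NSDHL and TM7SF2 lay between 0.15 and 0.35 log2. Dimmer probe sets gave 0.88 for DHCR7 and 0.59 for NSDHL. Both passed in limma over all probe sets naming 1 gene (adjusted p = 0.012 and 0.017), so these non-calls depend on the probe set. The probe sets of MVK ran from -0.08 to 0.54 and those of EBP from -0.07 to 0.35.

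Of the fatty acid genes, SCD rose in the Snail line. It read 11.30 and 11.12 on the Snail arrays, against 10.08 and 10.13 on the vector arrays, a rise of 1.10 ± 0.22 (adjusted p = 0.0074). Its 4 probe sets gave 0.88 to 1.21. The call was lost without Snail replicate 1 (1.02, adjusted p = 0.062). FASN read 10.10 and 9.82 on the Snail arrays, against 10.08 and 9.86 on the vector arrays, and the groups overlapped (-0.01 ± 0.19, adjusted p = 0.98). ACACA read 9.44 and 9.46 on the Snail arrays, against 9.01 and 8.92 on the vector arrays (0.49 ± 0.16, adjusted p = 0.070), with -0.46 from its other probe set. ELOVL6 read 8.08 and 8.30 on the Snail arrays, against 8.20 and 8.11 on the vector arrays, again overlapping (adjusted p = 0.92). ACSL1 read 10.22 and 10.00 on the Snail arrays, against 9.44 and 9.39 on the vector arrays (0.70 ± 0.26, adjusted p = 0.10). ACLY, LPIN1 and FADS2 were at 0.32, 0.52 and 0.21, short of the threshold. Dimmer probe sets gave 0.49 and 0.71 for LPIN1, -0.17 and 0.06 for ACLY and -0.08 for FADS2. The 0.71 of LPIN1 passed in limma over all probe sets naming 1 gene (adjusted p = 0.0076).

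**Figure D3:**
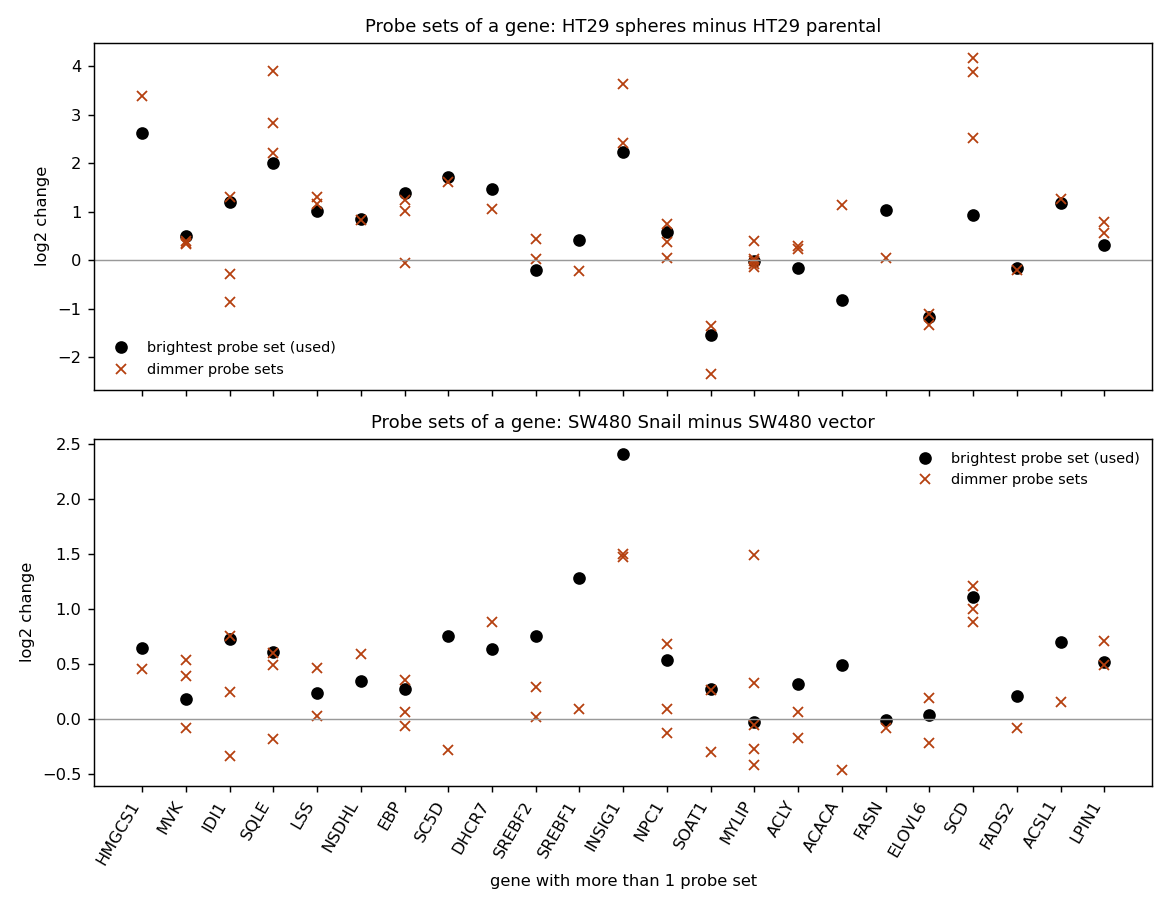
Log2 change of every probe set of the members read by more than 1 probe set naming them alone, HT29 spheres minus HT29 parental above and SW480 Snail minus SW480 vector below; filled circles are the probe sets used and crosses the dimmer ones. SCD spans 0.93 to 4.16 in spheres, and the 2 probe sets of ACACA lie on opposite sides of 0 in both comparisons.

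The sphere and Snail comparisons share no array, and they could be set against each other by the difference of the 2 changes. For 12 of the 34 members that difference passed, against 27.5% of all genes. The change was higher in spheres for 20.6% of the members and lower for 14.7%. HMGCS1, SQLE, LSS, MSMO1, EBP and SC5D had the larger change in spheres. The difference was largest for HMGCS1 at 1.97 ± 0.29 log2 (adjusted p = 0.00074) and MSMO1 at 1.83 ± 0.36 (adjusted p = 0.0038). FASN also had the larger change in spheres, by 1.05 ± 0.27 (adjusted p = 0.016). SREBF2 and SREBF1 had the larger change in the Snail line, with differences of -0.95 ± 0.19 (adjusted p = 0.0037) and -0.86 ± 0.20 (adjusted p = 0.0092). SOAT1 (-1.82 ± 0.22), ACACA (-1.31 ± 0.23) and ELOVL6 (-1.20 ± 0.23) had the lower change in spheres. By role, 6 of 16 sterol enzymes had the higher change in spheres and 0 the lower. Of 10 control and transport genes 0 had the higher change and 3 the lower, and of 8 fatty acid genes 1 and 2. Over all genes 10.6% had the higher change and 16.9% the lower, so 0 of 10 and 1 of 8 higher were near the share of all genes. With the mean of probe sets the difference did not pass for ACACA (0.15, adjusted p = 0.52), SREBF2 (-0.26, adjusted p = 0.25) and FASN (0.59, adjusted p = 0.058).

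Members higher in both comparisons numbered 9: IDI1, FDPS, SQLE, SC5D, SREBF1, INSIG1, STARD4, NPC1 and SCD. They made up 45.0% of the 20 higher in spheres, while 32.4% of all 34 members were higher in the Snail line. They made up 81.8% of the 11 higher in the Snail line, while 58.8% of all 34 members were higher in spheres. Over all genes 1.78% were higher in both, but the members rose more often than all genes in each comparison, so some overlap follows from that alone. No member was called in opposite directions, and 7 passed in neither comparison. The difference of the 2 changes did not pass for INSIG1, STARD4 and SCD, at -0.17 ± 0.60, 0.17 ± 0.31 and -0.17 ± 0.31 (adjusted p 0.73 to 0.87), which does not show that they changed alike. For SCD the mean of its probe sets gave a difference of 1.83 (adjusted p = 0.0059), and for INSIG1 leaving out parental replicate 2 gave 0.73 (adjusted p = 0.025).

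**Figure D4:**
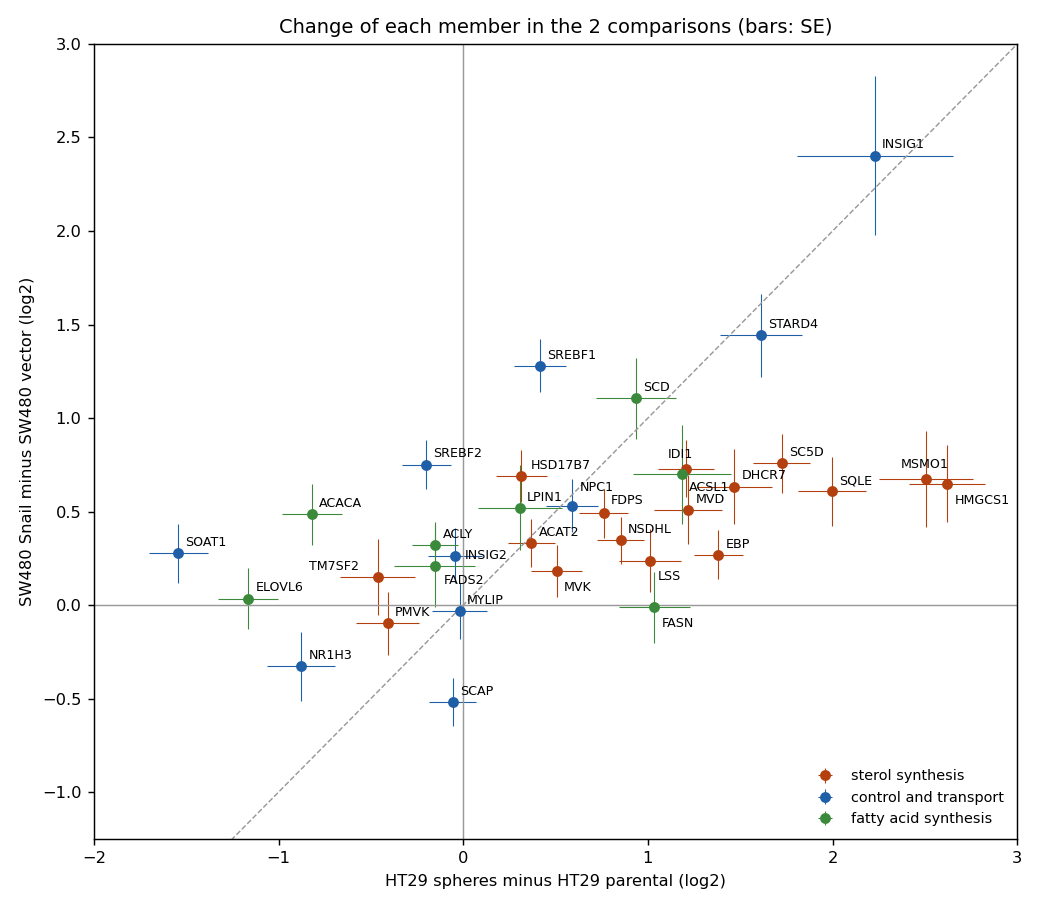
Log2 change of each of the 34 members in HT29 spheres against parental cells (horizontal axis) and in SW480 Snail against vector cells (vertical axis), with SE bars from limma and the dashed line of equal change. Most sterol enzymes lie to the right of the line, SREBF1 and SREBF2 above it, and INSIG1, STARD4 and SCD close to it.

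The control groups of the 2 lines were also compared. In SW480 vector cells 8 of the 34 members were higher and 16 lower than in HT29 parental cells, or 23.5% and 47.1%, against 22.6% and 23.5% of all genes (46.1% in either direction). This comparison uses the parental and vector arrays that also serve as controls above, and the 2 lines differ in many ways beside the vector. INSIG1 was lower in SW480 vector cells by 2.52 ± 0.42 log2 as measured by limma, at 7.20 ± 0.19 against 9.72 ± 1.28 in HT29 parental cells (SD, n = 2 each, adjusted p = 0.00064). HMGCS1 averaged 6.14 ± 0.19 in SW480 vector cells and 8.0 ± 0.50 in HT29 parental cells, and SQLE 9.27 ± 0.01 and 10.86 ± 0.45. SREBF1 and SREBF2 were also lower in SW480 vector cells, with differences of -1.63 ± 0.14 and -1.42 ± 0.13. NR1H3 differed by -1.64. Other probe sets gave smaller differences for INSIG1 (-1.67 and -1.06), HMGCS1 (-0.37), SREBF1 (-0.22) and SREBF2 (-0.34 and 0.34). ACACA and SCD were at -1.60 and -1.78 on the probe sets used, but other probe sets ran the opposite way, at 0.74 for ACACA and at 0.67 and 0.35 for SCD (its remaining one gave -0.50), so no direction can be given for either.

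Higher in SW480 vector cells than in HT29 parental cells were EBP, whose arrays did not overlap (39.6% of all genes in this direction), at 10.68 ± 0.07 against 8.87 ± 0.15, FADS2, at 7.79 ± 0.53 against 6.15 ± 0.13, and SOAT1, at 7.67 ± 0.10 against 6.79 ± 0.32. FASN was higher by 0.86 ± 0.19. Other probe sets of EBP gave -0.99, -0.53 and 0.06, that of FADS2 gave -0.06, those of SOAT1 gave -0.16 and 0.56 and that of FASN gave 0.20. With the mean of probe sets EBP (0.084, adjusted p = 0.53) and SOAT1 (0.42, adjusted p = 0.12) did not pass, so the line difference of EBP is that of 1 probe set. For SREBF1, the mean of 8.55 on the Snail arrays lay between 7.27 on the vector arrays and 8.90 on the parental HT29 arrays. For HMGCS1 the order of the group means was 10.62 in spheres, 8.0 in parental cells, 6.79 in the Snail line and 6.14 in vector cells, where the difference between the lowest neighbours did not pass (adjusted p = 0.059). On its dimmer probe set the parental arrays read 5.51 and 6.15 and the Snail arrays 5.94 and 5.89. No order of parental cells and the Snail line can thus be given for HMGCS1.

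Of 42 further genes of these pathways 38 were measured. Among 17 related to sterols, 6 rose, 3 fell and 8 did not pass in spheres, at a median of 0.15 log2. The share that fell, 17.6%, was near the 19.0% of all genes, and 35.3% rose, against 12.4%. The largest rises were in VLDLR, a lipoprotein receptor, at 1.34 ± 0.14, and ABCG1, a sterol exporter and known LXR target, at 1.23 ± 0.13. LBR, a nuclear envelope protein with sterol reductase activity, fell by 1.27 ± 0.13, and MBTPS1, the protease that makes the first cut in SREBPs, by 0.75 ± 0.12. In the Snail line 2 rose, GGPS1, which makes geranylgeranyl diphosphate (1.09 ± 0.13), and CYP27A1, a sterol hydroxylase (0.83 ± 0.13). The same line had 2 falls, CH25H, a cholesterol hydroxylase, by 1.11 ± 0.14, and SCARB1, a lipoprotein receptor, by 0.64 ± 0.13. The remaining 13 did not pass there, and 11.8% in each direction was near the 8.91% higher and 7.34% lower of all genes.

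Among 21 genes related to fatty acids, 7 rose, 5 fell and 9 did not pass in spheres. That is 33.3% higher, against 12.4% of all genes, and 23.8% lower, near the 19.0% of all genes. ACSS2, which makes acetyl-CoA from acetate and is a known SREBP target, averaged 9.84 in spheres against 7.75 in parental cells, a rise of 2.10 ± 0.24. FADS3, a desaturase family member, rose by 1.08 ± 0.13. MID1IP1, which promotes acetyl-CoA carboxylase activity, fell by 1.47 ± 0.13, and HACD3, a dehydratase of chain elongation, by 0.68 ± 0.14. In the Snail line 4 rose, 2 fell and 15 did not pass, or 19.0% higher, against 8.91% of all genes, and 9.52% lower, near the 7.34% of all genes. ME1, which supplies NADPH, rose by 1.5 ± 0.12 and ACSL4, an acyl-CoA synthetase, by 1.10 ± 0.18. ACSL5, another acyl-CoA synthetase, fell by 1.22 ± 0.15 and DGAT2, which makes triglyceride, by 0.69 ± 0.16.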

How the data were processed

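Gene expression was measured on 8 Affymetrix arrays, 2 for each of 4 groups set by the sample titles. The deposited table holds log2 expression for each probe set. The submitters' processing notes name RMA, a method that subtracts background, brings arrays to one distribution and merges probes, so values are relative to these arrays. Its version is not given in the sources used here. Detection against background was not measured, and the number of arrays limits precision. No further scaling was applied. Of 54675 probe sets, 41091 named 1 gene in GEO's platform annotation, and each of 19775 genes was read by its brightest one.

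Tests used limma 3.58.1 in R 4.3.3, 1 mean per group over all 8 arrays, with 4 residual and 6.10 prior degrees of freedom, two-sided, adjusted by Benjamini-Hochberg over all genes. An exact permutation of 2 arrays against 2 cannot go below p = 0.333, so none was used. The fit was tested on simulated data. The members and lists were chosen with earlier results of these data known. All measured members are named. Values on every array are given for members past the threshold with a change of at least 1 log2, for SREBF1, SREBF2, SCAP, INSIG1 and INSIG2, and for members whose 2 changes differ. Related genes are named for the 2 largest called rises and falls per list. Alternatives were quantile normalisation, leaving out the dimmest 40% of genes, the mean of a gene's probe sets, each line alone, array weights, a mean-variance trend, a replicate block and leaving out each array. Promoters were searched with Python 3.11.15.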

Additional observations from a re-analysis of the deposited data

Results flagged for a closer look

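The change in HT29 spheres and the change in the SW480 line labelled Snail differed by limma's test of the difference for 12 members, each a log2 sphere change minus Snail change. The sphere change was the higher one for HMGCS1 (1.97), MSMO1 (1.83), SQLE (1.39), EBP (1.11), FASN (1.05), SC5D (0.97) and LSS (0.77). It was the lower one for SOAT1 (-1.82), ACACA (-1.31), ELOVL6 (-1.20), SREBF2 (-0.95) and SREBF1 (-0.86). Of the 34 members 20.6% had the higher change in spheres and 14.7% the lower, against 10.6% and 16.9% of all genes (27.5% in either direction). The share with the lower change was thus near that of all genes. With the mean of a gene's probe sets the difference did not pass for ACACA (0.15), SREBF2 (-0.26) and FASN (0.59).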

How the results depend on the processing

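Each group has 2 arrays, which limits every value here, and detection against background was not measured. Array weights raised the members higher in the Snail line to 17, against 11 as reported, and the other counts of members stayed within 1.5 times under quantile normalisation, the filter, the mean of probe sets, single-line fits, the trend and the block. Leaving out 1 of the 8 arrays gave 16 to 21 members higher and 4 to 5 lower in spheres, 5 to 16 higher and 0 to 1 lower in the Snail line, and 10 to 18 that differed between the 2 changes. For SW480 vector against HT29 parental cells it gave 6 to 12 higher and 13 to 17 lower. Over all genes the calls in the Snail line ran from 1447 to 4087, against 3213. A left-out array leaves a lone sample that is assumed to vary like the other groups. With the replicate number as a block, 18 members were higher and 4 lower in spheres, and 11 higher and 1 lower in the Snail line. The block ended the calls of ACAT2 (0.37, adjusted p = 0.065) and SREBF1 (0.42, adjusted p = 0.062) in spheres and of SC5D between the lines (-0.43, adjusted p = 0.055). Deviations of arrays with the same number correlated at -0.06 to 0.06 over all genes. This does not settle whether such arrays were handled together, since a link limited to few genes would not show. Some values changed sign. Quantile normalisation gave SCAP 0.046, INSIG2 0.059 and MYLIP 0.10 in spheres. The mean of probe sets gave SREBF2 0.089, MYLIP 0.027, ACLY 0.13 and ACACA 0.16 in spheres, MYLIP 0.17 in the Snail line, and differences of -0.0058 for IDI1, 0.97 for INSIG1, 0.15 for ACACA and 1.83 for SCD. Over the left-out arrays the sphere changes ran from -0.15 to 0.034 for SCAP, -0.24 to 0.16 for INSIG2, -0.20 to 0.16 for MYLIP and -0.062 to 0.67 for LPIN1. The Snail changes ran from -0.084 to 0.022 for MYLIP, -0.15 to 0.13 for FASN, -0.077 to 0.15 for ELOVL6 and -0.17 to 0.59 for FADS2. The differences ran from -1.08 to 0.73 for INSIG1, -0.25 to 0.58 for STARD4, -0.099 to 0.22 for NPC1 and -0.57 to 0.23 for SCD. The cause of these changes was not tested.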
